A study of Mus musculus with 19 samples.

Results

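The purinergic and adenosine pathway genes described here are 8 genes, Entpd1, Nt5e, Adora2a, Ada, P2rx7, P2rx4, Cd38 and Dpp4, chosen by their symbols from the 24982 rows of a table of RNA-seq counts. All 8 were in the table and all 8 were among the 11464 genes that passed the filter on low counts. The table lists them in capitals (ENTPD1, NT5E, ADORA2A, ADA, P2RX7, P2RX4, CD38 and DPP4), and the mouse spelling is used below. The RNA came from regulatory T cells (Tregs), the FoxP3-expressing CD4+ T cells that restrain immune responses, sorted by FACS into CD44high and CD44low cells. CD44 is a surface receptor for hyaluronan that is high on activated and memory T cells.

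All mice were of the Foxp3DTR strain, in which Foxp3-expressing cells carry the diphtheria toxin receptor and GFP, and were between 8 and 16 weeks old by the study's methods. Injured mice had 20% of the body surface held in water at 90 °C for 9 seconds under ketamine and xylazine anaesthesia with buprenorphine, and uninjured (sham) mice went through the same steps with water at room temperature. Both then received saline with atipamezole, and cells were taken from the axillary, brachial and inguinal lymph nodes 7 days later. CD4+FoxP3-GFP+ cells gave 4 CD44high and 5 CD44low libraries from uninjured mice and 4 CD44high and 6 CD44low libraries from injured mice, 19 in all, each from the RNA of 50000 cells. Whether a sample held the cells of 1 mouse or of several is not stated, so p-values measure the spread between these samples only. Totals per library lay between 5678888 and 8319320 counts in uninjured CD44high, 5914160 and 6964692 in uninjured CD44low, 7616633 and 9433610 in injured CD44high, and 5582234 and 8011051 in injured CD44low Tregs. Levels are given as CPM, counts per 1000000 of the library total after scaling by edgeR's TMM factor. A gene was called at an adjusted p under 0.05 in edgeR's quasi-likelihood test (two-sided, Benjamini-Hochberg over all genes tested), and errors of log2 fold changes are standard errors (SE).

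ATP that leaves stressed or dying cells is a danger signal, which T cells sense through P2X channels and P2Y receptors. CD39 (Entpd1) strips ATP and ADP to AMP, CD73 (Nt5e) turns AMP into adenosine, and adenosine acts through its receptor Adora2a to raise cAMP and dampen T cell activation. Tregs are known for carrying CD39 and CD73. Adenosine deaminase (Ada) removes adenosine, CD26 (Dpp4) is a surface peptidase, and CD38 (Cd38) breaks down NAD outside the cell. ARTC2.2 (Art2b) uses the same NAD to modify the P2X7 channel (P2rx7), whose opening in T cells can lead to the shedding of surface proteins and to cell death, and P2X4 (P2rx4) is a related ATP-gated channel.

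The bases upstream of the transcription starts of Nt5e, P2rx7, Dpp4 and Art2b are shown. Of these genes Nt5e was higher and the others lower in CD44high Tregs of uninjured mice. Entpd1, Adora2a and Cd38 were also higher there, with larger log2 fold changes than Nt5e (0.77, 0.79 and 0.86 against 0.76), and are not shown. The windows are the 250 bases before the start in RefSeq's promoter table (GRCm38.p6), which holds 32851 windows and an entry for 7 of the 8 genes, all but Adora2a. The sources used here name mm9 and mm10 without saying which one the counts rest on. P2rx7 has 2 starts in the table, and the counts do not separate them. Capitals mark matches, on either strand, to TGANTCA (the AP-1 site) and GGGCGG (the GC box) and to CTTTGA (the TCF/LEF core), and no match of one motif overlapped a match of another.
Nt5e, chr9:88327359-88327608, + strand: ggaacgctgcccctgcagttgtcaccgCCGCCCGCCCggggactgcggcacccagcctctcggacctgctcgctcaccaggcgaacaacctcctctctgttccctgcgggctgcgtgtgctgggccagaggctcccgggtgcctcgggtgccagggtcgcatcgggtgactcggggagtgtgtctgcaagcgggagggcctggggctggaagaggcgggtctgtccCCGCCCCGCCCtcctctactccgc
P2rx7 first start, chr5:122643677-122643926, + strand: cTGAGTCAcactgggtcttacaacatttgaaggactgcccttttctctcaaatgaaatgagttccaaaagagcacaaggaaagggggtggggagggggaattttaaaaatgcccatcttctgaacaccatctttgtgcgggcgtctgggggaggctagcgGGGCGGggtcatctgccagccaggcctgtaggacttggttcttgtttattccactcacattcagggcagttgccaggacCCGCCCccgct
P2rx7 second start, chr5:122650133-122650382, + strand: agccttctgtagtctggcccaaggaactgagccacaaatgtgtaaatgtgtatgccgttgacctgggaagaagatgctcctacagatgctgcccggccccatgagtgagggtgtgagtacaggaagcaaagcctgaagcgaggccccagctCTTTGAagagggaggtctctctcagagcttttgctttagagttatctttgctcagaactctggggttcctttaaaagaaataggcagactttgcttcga
Dpp4, chr2:62412232-62412481, - strand: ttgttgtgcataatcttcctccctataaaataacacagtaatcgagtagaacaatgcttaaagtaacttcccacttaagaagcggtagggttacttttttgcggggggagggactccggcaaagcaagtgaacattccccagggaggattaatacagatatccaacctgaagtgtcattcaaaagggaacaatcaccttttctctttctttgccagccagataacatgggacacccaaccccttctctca
Art2b, chr7:101581162-101581411, - strand: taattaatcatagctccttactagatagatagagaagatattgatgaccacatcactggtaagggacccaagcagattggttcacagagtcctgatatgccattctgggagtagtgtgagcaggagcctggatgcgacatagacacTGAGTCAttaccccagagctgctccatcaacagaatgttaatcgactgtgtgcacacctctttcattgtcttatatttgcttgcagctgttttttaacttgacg

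TGANTCA was found before the first start of P2rx7 (249 bases before it) and before Art2b (104 bases before it), and 6.75% of all windows hold it. GGGCGG was found 4 times before Nt5e, in 2 pairs that share bases, and also before the first start of P2rx7 and before Ada, against 32.7% of all windows. CTTTGA was found before the second start of P2rx7 and before P2rx4, and 13.8% of all windows hold it. None of the 3 motifs was in the windows of Dpp4, Cd38 or Entpd1. The window of Nt5e had a GC content of 72.0%, that of Dpp4 43.6% and that of Art2b 43.2%, against a median of 52.4%. These matches are descriptions of the sequence only.

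The sort was visible in the counts. Cd44 had 594 ± 37.5 CPM (SD, n = 4) in CD44high and 133 ± 16.1 CPM (SD, n = 5) in CD44low Tregs of uninjured mice, and 436 ± 54.5 (SD, n = 4) and 117 ± 18.2 CPM (SD, n = 6) in those of injured mice. Foxp3, the factor that defines Tregs, had a mean of 87.7 CPM in CD44high and 115 CPM in CD44low libraries of uninjured mice, and 70.6 and 103 CPM in those of injured mice, and was not called in any comparison. Cd3e, part of the T cell receptor complex, lay between 1264 and 1601 CPM in all 19 libraries and was not called either. Cd4 was called between the subsets of injured mice only (log2 0.30, adjusted p = 0.0265). Il2ra, the IL-2 receptor alpha chain, was lower in CD44high Tregs (log2 -0.62 and -0.82 in uninjured and injured mice). Ctla4, an inhibitory receptor, and Ikzf2, a Treg factor, were higher (log2 2.32 and 1.89 for Ctla4, 0.92 and 0.49 for Ikzf2), and Ctla4 also rose after injury in CD44low Tregs (log2 0.73, adjusted p = 0.000634).

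Transcripts of other cell types were present and differed between the sorted subsets. The 12 genes of the macrophage and dendritic cell list summed to 133 CPM in CD44high and 30.5 CPM in CD44low Tregs of uninjured mice, and to 170 and 70.6 CPM in those of injured mice, with Lyz2 the most abundant in each group. Of its 10 genes tested, 10 were higher in CD44high Tregs of uninjured mice and 4 in those of injured mice, and 2, Lyz2 and Itgam, rose after injury in CD44low Tregs. Fcgr1 and Clec9a had no count in uninjured CD44low Tregs. The 8 B cell genes in the table summed to 154, 111, 147 and 135 CPM in uninjured CD44high, uninjured CD44low, injured CD44high and injured CD44low Tregs, with Cd79b leading, and 1 of 8 was called (uninjured, higher in CD44high). The CD8 and NK cell list summed to between 56.2 and 67.8 CPM by group, led by Cd8b1, with Klra8 at 0, and 1 of 5 genes tested was higher in CD44high Tregs of each kind of mouse, Klrb1c, which was also called higher after injury in CD44low Tregs (log2 3.00, adjusted p = 0.00872). In each subset of uninjured mice the neutrophil list was below 1 CPM in the mean, with Ly6g at 0, and it reached 8.65 and 7.26 CPM in injured CD44high and CD44low Tregs, with the other 3 CD44high libraries at 1.06 to 9.82 CPM beside 21.0 CPM in replicate 3, and the other 5 CD44low libraries at 0 to 5.84 CPM beside 32.6 CPM in replicate 2. Its most abundant gene was S100a9 in injured CD44high (3.96 CPM) and S100a8 in injured CD44low Tregs (3.39 CPM), and S100a9 was called higher after injury in each subset (adjusted p = 0.0496 and 0.0241) while S100a8 was not. The plasma cell list had means of 2.96, 0.449, 5.74 and 1.01 CPM in the same order of groups as for B cells, led by Sdc1 except in uninjured CD44low Tregs, where Jchain led. Sdc1, its 1 gene tested, was higher in CD44high Tregs of each kind of mouse, and Tnfrsf17 was at 0. The stroma and endothelium list was almost all Pecam1, which naive T cells also express, at 60.7 CPM in CD44high and 201 CPM in CD44low Tregs of uninjured mice, with Pdpn and Ccl21a at 0. Its other gene tested, Col1a1, went the other way, at 2.36 against 0.0567 CPM in uninjured mice (log2 4.92) and 1.50 against 0.263 CPM in injured mice (log2 2.496), and was called in both. In sorted bulk samples a change in the share of cells that express a gene and a change in its RNA per cell cannot be told apart. The part that the macrophage and dendritic cell RNA had in the differences of Entpd1, Adora2a and Cd38 between the subsets was not tested.

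Of the 6 CD44low libraries from injured mice, 3 are labelled with a second digit after the replicate number (1_2, 4_2 and 5_2), and no source used here says what it stands for. For 4 of the 8 genes these 3 did not overlap libraries 1, 2 and 5, and for Entpd1, Adora2a, Ada and P2rx4 they did. Nt5e lay between 166 and 177 CPM in them and between 227 and 288 CPM in the other three, Cd38 between 17.6 and 27.4 against 35.5 and 50.4 CPM, P2rx7 between 73.7 and 107 against 116 and 138 CPM, and Dpp4 between 112 and 139 against 153 and 178 CPM. Their macrophage and dendritic cell list summed to between 34.6 and 46.9 CPM, against 58.4 to 160 CPM in the others. Of all 11464 genes tested, 19.4% did not overlap between these sets of 3. The smallest p that 3 against 3 allow in an exact test is 0.1. The 8 genes were not tested between these sets by edgeR or by an exact test. Results of the 8 genes that rest on injured CD44low Tregs are therefore given with these libraries and without them.

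Levels of different genes were compared per kilobase of the exons that GENCODE annotates. Over all 19 libraries Nt5e had the highest mean level per length of the 8 genes (31.1 CPM per kb), followed by Dpp4 (21.4), P2rx7 (14.5), Adora2a (13.5), Entpd1 (13.3), Cd38 (11.9), Ada (8.28) and P2rx4 (4.47 CPM per kb). The order differed by group: Dpp4 (25.3) was above Nt5e (23.0 CPM per kb) in uninjured CD44low Tregs, and in uninjured CD44high Tregs Dpp4 (13.6) was below Entpd1 (18.9), Adora2a (18.5) and Cd38 (15.4), and P2rx7 (5.26) below Ada (7.97 CPM per kb). Over all libraries, with the longest coding transcript as the length, Entpd1 moved ahead of P2rx7 and Adora2a, and P2rx4 ahead of Ada, while Nt5e and Dpp4 kept their places. In CD44high Tregs of uninjured mice the level per length of Nt5e was 38.9 ± 4.22 CPM per kb (SD, n = 4) and that of P2rx7 was 5.26 ± 1.44 (SD, n = 4). In CD44low Tregs of uninjured mice P2rx7, at 22.8 ± 2.67 CPM per kb (SD, n = 5), and Nt5e, at 23.0 ± 2.03 (SD, n = 5), had nearly the same mean, but per kb of the longest coding transcript Nt5e had 49.6, Dpp4 30.4 and P2rx7 27.5 CPM per kb there, so the order of these 3 genes in uninjured CD44low Tregs depends on the length used. Adora2a was the 1 adenosine receptor gene of 4 that was tested. Adora1 had no count in any library, and Adora2b and Adora3 stayed at or under 8 counts summed over a group. P2rx4 and P2rx7 were the P2X genes tested, of 7.

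**Figure D1:**
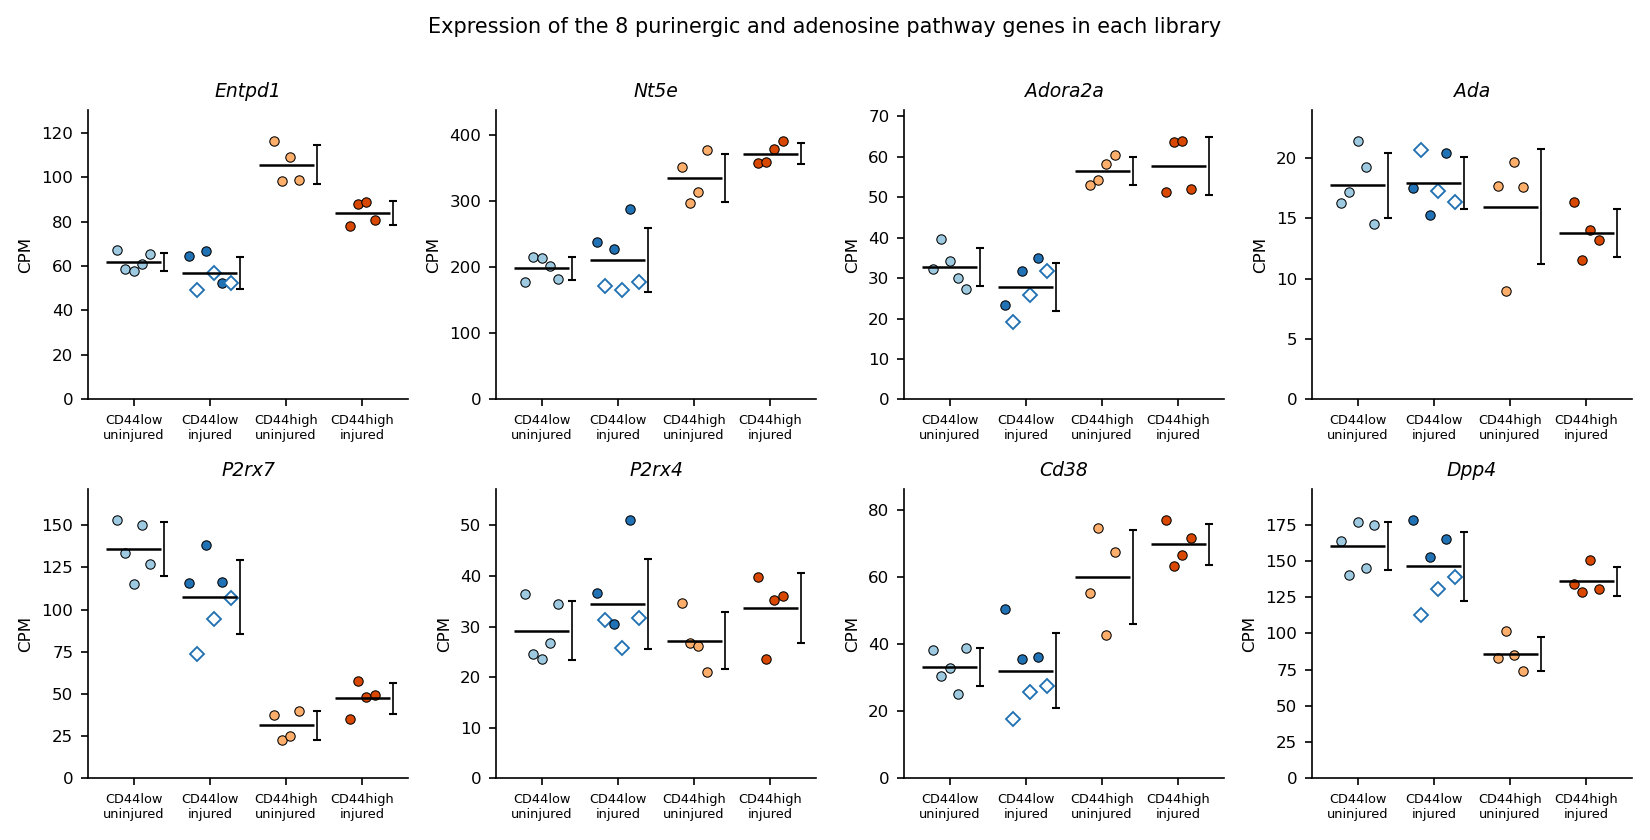
Each panel plots the CPM of 1 gene (y axis, linear, from 0) in every library of the 4 groups (x axis); horizontal lines are means, bars to their right are SDs, and open diamonds are the injured CD44low libraries 1_2, 4_2 and 5_2. Entpd1, Nt5e, Adora2a and Cd38 were higher and P2rx7 lower in every CD44high library than in every CD44low library of the same kind of mouse, and Dpp4 was lower in CD44high Tregs of uninjured mice.

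The first question was how the CD44high and CD44low subsets differ. In uninjured mice 6 of the 8 genes were called, where 46.1% of all genes tested were called. Entpd1, Nt5e, Adora2a and Cd38 were higher in CD44high Tregs (24.7% of all genes were called higher), and P2rx7 and Dpp4 were lower (21.3% of all genes). The same 6 genes had no overlap between the groups, as did 40.7% of all genes tested. In injured mice 5 of the 8 were called, against 37.4% of all genes: Entpd1, Nt5e, Adora2a and Cd38 were again higher (20.1% of all genes) and P2rx7 was again lower (17.2% of all genes). These 5 did not overlap between the groups, as did 24.8% of all genes. The median log2 fold change of the 8 genes was 0.33 in uninjured and 0.26 in injured mice, against 0.01 and -0.00055 over all genes tested. Ada and P2rx4 were not called in either. Leaving out libraries 1_2, 4_2 and 5_2 left both counts at 6 and 5.

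Entpd1, which encodes the enzyme that starts the breakdown of ATP, was measured at 116, 98.1, 109 and 98.7 CPM in the CD44high and at 67.0, 58.6, 57.6, 60.9 and 65.4 CPM in the CD44low libraries of uninjured mice. In injured mice the CD44high libraries had 78.0, 87.9, 89.0 and 80.6 CPM, and the 6 CD44low libraries ranged from 49.1 to 66.7 CPM with a median of 54.5 CPM. All CD44high libraries lay above all CD44low libraries of either kind of mouse. The log2 fold change was 0.77 ± 0.11 (SE, adjusted p = 3.74e-06) in uninjured and 0.56 ± 0.10 (SE, adjusted p = 0.000162) in injured mice, and 0.46 (adjusted p = 0.00419) without libraries 1_2, 4_2 and 5_2.

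Nt5e, which encodes the enzyme that makes adenosine from AMP, had 351, 296, 314 and 377 CPM in CD44high and 178, 215, 214, 202 and 182 CPM in CD44low libraries of uninjured mice. In injured mice it had 357, 359, 379 and 391 CPM in CD44high libraries and between 166 and 288 CPM, median 202 CPM, in CD44low libraries. The lowest CD44high library was therefore above the highest CD44low library in each kind of mouse. The difference was 1.69-fold in uninjured (log2 0.76 ± 0.13, SE, adjusted p = 5.93e-05) and 1.76-fold in injured mice (log2 0.81 ± 0.13, SE, adjusted p = 1.66e-05). Without libraries 1_2, 4_2 and 5_2 the latter was log2 0.57 (adjusted p = 0.000292).

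Adora2a, the adenosine receptor of this set, had 53.1, 54.2, 58.3 and 60.5 CPM in CD44high libraries of uninjured mice, against 32.3, 39.7, 34.3, 30.0 and 27.3 CPM in the CD44low libraries. In injured mice the CD44high libraries had 51.2, 63.7, 64.0 and 52.0 CPM and the CD44low libraries ranged from 19.1 to 34.9 CPM with a median of 28.8 CPM. No CD44low library reached the lowest CD44high library. The log2 fold change was 0.79 ± 0.15 (SE, adjusted p = 0.000207) in uninjured and 1.05 ± 0.15 (SE, adjusted p = 3.87e-06) in injured mice, and 0.94 (adjusted p = 7.45e-05) without libraries 1_2, 4_2 and 5_2.

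Ada, the deaminase that removes adenosine, was low, at 17.6, 8.98, 19.7 and 17.6 CPM in CD44high and 16.2, 17.2, 21.4, 19.2 and 14.5 CPM in CD44low libraries of uninjured mice. In injured mice the values were 16.3, 11.5, 14 and 13.2 CPM in CD44high libraries and 15.3 to 20.7 CPM, median 17.4 CPM, in CD44low libraries. The groups overlapped in both kinds of mouse. The 95% interval of the log2 fold change reached from -0.56 to 0.26 in uninjured and from -0.77 to 0.01 in injured mice. Leaving out libraries 1_2, 4_2 and 5_2 gave log2 -0.37 (adjusted p = 0.242) for the latter. Without replicate 3 of uninjured CD44high Tregs, the library with the lowest value, the injured comparison was called (log2 -0.40, adjusted p = 0.0469).

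P2rx7, the ATP-gated channel, had the largest fold difference of the 8 genes between the subsets. Its values were 37.8, 22.9, 25.2 and 39.8 CPM in CD44high libraries and 153, 134, 115, 150 and 127 CPM in CD44low libraries of uninjured mice. In injured mice the CD44high libraries had 34.9, 57.5, 47.9 and 49.2 CPM and the CD44low libraries ranged from 73.7 to 138 CPM with a median of 111 CPM. Every CD44low library lay above every CD44high library. The level was 4.31-fold lower in CD44high Tregs of uninjured (log2 -2.11 ± 0.19, SE, adjusted p = 3.02e-09) and 2.27-fold lower in those of injured mice (log2 -1.18 ± 0.18, SE, adjusted p = 9.94e-06). Without libraries 1_2, 4_2 and 5_2 the latter was log2 -1.38 (adjusted p = 2.72e-06). In GENCODE the exons of P2rx7 share 119 bases with Mir8115 on the same strand, and those reads cannot be told apart.

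P2rx4 showed no called difference. It had 34.7, 26.8, 26.2 and 21.1 CPM in CD44high and 36.5, 24.6, 23.7, 26.9 and 34.4 CPM in CD44low libraries of uninjured mice, and 39.8, 23.6, 35.2 and 36.1 CPM in CD44high libraries of injured mice, where CD44low libraries ranged from 25.7 to 51.2 CPM with a median of 31.5 CPM. The groups overlapped throughout. Its log2 fold change between the subsets had a 95% interval of -0.52 to 0.31 in uninjured and -0.43 to 0.35 in injured mice. The latter fold change was log2 -0.23 (adjusted p = 0.452) without libraries 1_2, 4_2 and 5_2.

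Cd38, the NAD-consuming ectoenzyme, had 55.2, 74.7, 42.8 and 67.5 CPM in CD44high libraries of uninjured mice and 38.4, 30.5, 33.0, 25.3 and 38.8 CPM in the CD44low libraries. In injured mice it had 77.2, 63.5, 66.8 and 71.8 CPM in CD44high libraries and between 17.6 and 50.4 CPM, median 31.4 CPM, in CD44low libraries. The subsets did not overlap in either kind of mouse. The difference was 1.81-fold in uninjured (log2 0.86 ± 0.21, SE, adjusted p = 0.00201) and 2.16-fold in injured mice (log2 1.11 ± 0.20, SE, adjusted p = 0.000109), and log2 0.78 (adjusted p = 0.00242) without libraries 1_2, 4_2 and 5_2.

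Dpp4, which encodes the peptidase CD26, had 82.6, 101, 85.3 and 73.9 CPM in CD44high and 163, 140, 177, 145 and 174 CPM in CD44low libraries of uninjured mice. In injured mice the CD44high libraries had 134, 128, 151 and 131 CPM and the CD44low libraries ranged from 112 to 178 CPM with a median of 146 CPM. The subsets were fully apart in uninjured mice and overlapped in injured mice. The log2 fold change was -0.90 ± 0.13 (SE, adjusted p = 3.90e-06) in uninjured and -0.11 ± 0.12 (SE, adjusted p = 0.513) in injured mice, and -0.28 (adjusted p = 0.0685) in the latter without libraries 1_2, 4_2 and 5_2. In GENCODE the exons of Dpp4 overlap the antisense gene Gm13561, which the count table does not list, by 232 bases.

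**Figure D2:**
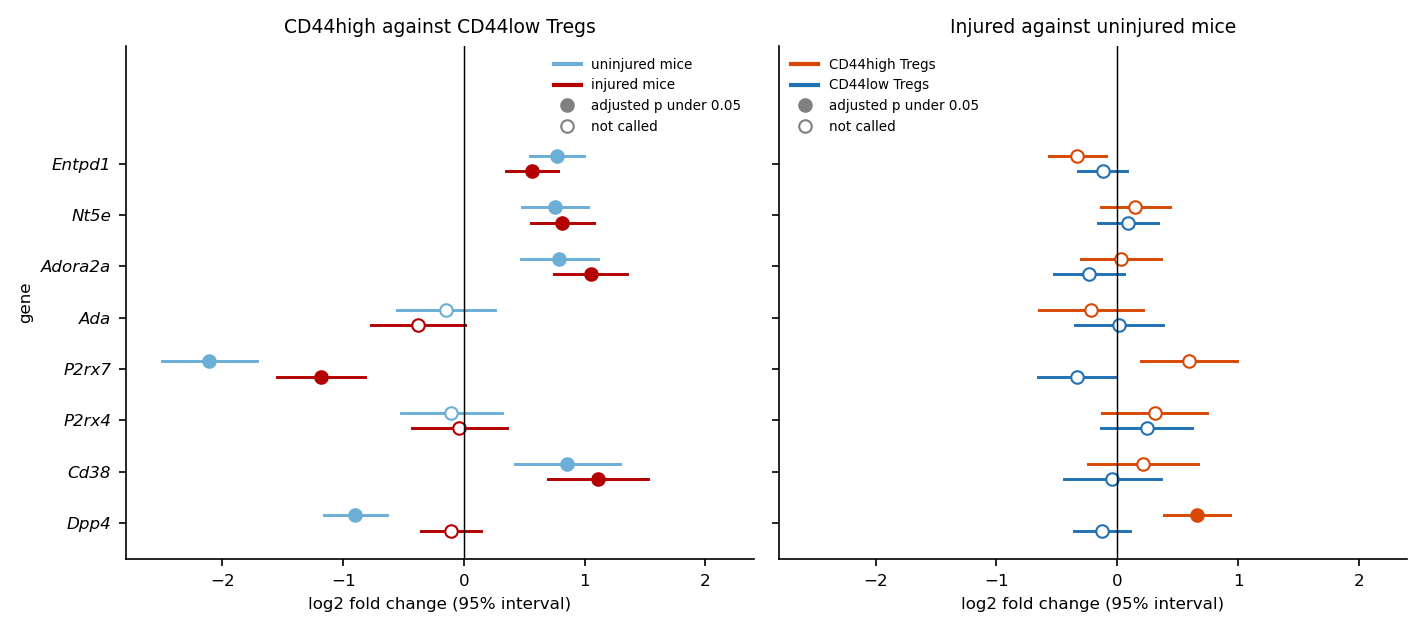
The log2 fold change (x axis) of each of the 8 genes (y axis) is plotted with its 95% interval, for CD44high against CD44low Tregs (left) and for injured against uninjured mice (right), with filled points for adjusted p under 0.05. On the left 6 points are filled for uninjured and 5 for injured mice, and on the right the point of Dpp4 in CD44high Tregs (0.66) is the 1 filled point.

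The second question was how each subset changed after injury. The comparisons share groups of libraries with each other and with those between the subsets, so their values are set side by side only. In CD44high Tregs 1 of the 8 genes was called, where 2.38% of all genes tested were called (1.06% higher and 1.33% lower in injured mice). This was Dpp4, which rose in all 4 injured libraries above the 4 uninjured ones (1.58-fold, log2 0.66 ± 0.13, SE, adjusted p = 0.00569). Under the 26 alternatives its log2 fold change lay between 0.61 and 0.77 with an adjusted p between 0.000242 and 0.0314. In the same libraries Cd44 itself was lower after injury without a call (368.7 to 496 CPM against 541 to 626 CPM, log2 -0.45, adjusted p = 0.0546), and Pecam1, which is higher in CD44low Tregs, rose (log2 0.69, adjusted p = 0.0075). The part that the place of the CD44 gate and the greater depth of the injured CD44high libraries had in the change of Dpp4 was not tested. Entpd1 also did not overlap between injured and uninjured CD44high Tregs, as did 13.2% of all genes, with lower values in injured mice, but was not called (log2 -0.33 ± 0.11, SE, adjusted p = 0.143). P2rx7 had a mean of 31.4 CPM in uninjured and 47.4 CPM in injured CD44high Tregs, with overlapping libraries (log2 0.59 ± 0.19, SE, adjusted p = 0.116), and was called without the injured CD44low libraries 1_2, 4_2 and 5_2 (log2 0.59, adjusted p = 0.0479), which leaves its own groups as they are. Nt5e, Adora2a, Ada, P2rx4 and Cd38 had log2 fold changes between -0.22 and 0.31.

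In CD44low Tregs 0 of the 8 genes were called by edgeR after injury, where 7.60% of all genes were called (4.24% higher and 3.36% lower in injured mice) and 4.68% did not overlap. At an unadjusted p under 0.05 edgeR counted 1, P2rx7 (log2 -0.33 ± 0.16, SE, adjusted p = 0.179), and DESeq2 called 0. The log2 fold changes of the 8 genes lay between -0.33 and 0.24. Without libraries 1_2, 4_2 and 5_2 Nt5e was called, at 251 ± 32.2 CPM (SD, n = 3) against 198 ± 17.5 CPM (SD, n = 5) in uninjured mice (log2 0.34, adjusted p = 0.0264), where with them its log2 fold change was 0.09. The sign of Cd38 then changed from -0.04 to 0.29 and that of Dpp4 from -0.13 to 0.05, neither called.

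The difference between the effects of injury in the subsets was tested as an interaction, for which 0.645% of all genes were called (0.192% with the larger log2 fold change in CD44high and 0.454% in CD44low Tregs). Of the 8 genes 1 was called, Dpp4, whose log2 change was 0.66 in CD44high and -0.13 in CD44low Tregs (difference 0.79 ± 0.17, SE, adjusted p = 0.0272). The call was lost when 1 of 7 libraries was left out: replicates 2, 4 or 5 of uninjured CD44high (adjusted p = 0.0820, 0.0613 and 0.0911), replicates 3 or 5 of uninjured CD44low (0.0612 and 0.0632) and replicates 4 or 5 of injured CD44high Tregs (0.0781 and 0.0554). It was also lost with the replicate number as a block (0.78, adjusted p = 0.0774). The difference itself stayed between 0.71 and 0.81 in all of these fits. Without libraries 1_2, 4_2 and 5_2 it was 0.62 and still called (adjusted p = 0.0339). P2rx7 had a difference of 0.93 ± 0.25 (SE, adjusted p = 0.0884), which was called by DESeq2 (0.91, adjusted p = 0.0318) and without replicate 2 of injured CD44high Tregs (1.03, adjusted p = 0.0426), and was 0.73 (adjusted p = 0.111) without libraries 1_2, 4_2 and 5_2. For the other 6 genes the difference lay between -0.23 and 0.26.

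The order of the 4 groups differed by gene. For Nt5e, Adora2a and Cd38 injured and uninjured CD44high Tregs came first, overlapping each other, and the CD44low groups followed, also overlapping each other. For Entpd1 uninjured CD44high Tregs came first, apart from injured CD44high Tregs, which were apart from the CD44low groups. For P2rx7 the order was turned, with the CD44low groups first. For Dpp4 uninjured CD44low, injured CD44low and injured CD44high Tregs overlapped as neighbours and uninjured CD44high Tregs stood below them. For Ada and P2rx4 all neighbours overlapped.

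Of 116 further genes on 12 lists of the pathway, 115 were in the table and 78 were tested. Of these 47 were called between the subsets in uninjured mice (21 higher and 26 lower in CD44high Tregs) and 40 in injured mice (17 higher and 23 lower), or 60.3% and 51.3% of those tested, against 46.1% and 37.4% of all genes, with median log2 fold changes of 0.02 and -0.00039. For the interaction 2 were called (2.56%, against 0.645% of all genes). After injury 4 were called in CD44high Tregs (5.13%, against 2.38% of all genes) and 6 in CD44low Tregs (7.69%, against 7.60% of all genes). The 6 were among 10 called without libraries 1_2, 4_2 and 5_2, and the count was 16 by DESeq2, 3 with the compared groups alone or without replicate 1 or 2 of uninjured CD44low Tregs, 10 without replicate 5 of these, 12 without replicate 2 of injured CD44high Tregs and 15 without injured CD44low library 5_2. In the lists below, the 8 genes are counted in the list each belongs to. Of all genes tested, 24.7% were called higher and 21.3% lower in CD44high Tregs of uninjured mice. In injured mice these shares were 20.1% and 17.2%, and the counts of each list are to be read beside them.

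Art2b, whose ADP-ribosyltransferase acts on P2X7 at the cell surface, had larger log2 fold changes between the subsets than any of the 8 genes. It had 4.63, 13.04, 9.17 and 6.63 CPM in CD44high libraries of uninjured mice and 51.5, 27.2, 29.5 and 34.0 CPM in those of injured mice. The CD44low libraries had 109, 86.7, 137, 128 and 135 CPM in uninjured mice and between 77.2 and 191 CPM, median 125 CPM, in injured mice. The injured CD44high libraries lay above all uninjured CD44high libraries and below all CD44low libraries. The log2 fold change between the subsets was -3.83 ± 0.31 (SE, adjusted p = 4.60e-10) in uninjured and -1.86 ± 0.26 (SE, adjusted p = 3.97e-06) in injured mice. Art2b rose after injury in CD44high Tregs (log2 2.09 ± 0.31, SE, adjusted p = 0.000307). The part that the CD44 gate and the greater depth of injured CD44high libraries had in this rise was not tested. In CD44low Tregs Art2b was not called (log2 0.11 ± 0.22, SE, adjusted p = 0.790). The difference between these changes was 1.97 ± 0.38 (SE, adjusted p = 0.0121), and 1.58 (adjusted p = 0.00978) without libraries 1_2, 4_2 and 5_2. In injured CD44low Tregs these 3 libraries had 77.2 to 98.5 CPM of Art2b and libraries 1, 2 and 5 had 152 to 191 CPM, above every uninjured CD44low library. Its near-identical copy Art2a-ps was lower in CD44high Tregs as well (log2 -3.24 and -1.35) but had at most 5.62 CPM in any library. Its injured call was lost in 4 alternatives, among them leaving out libraries 1_2, 4_2 and 5_2 (adjusted p = 0.116), and how reads were split between the copies is uncertain.

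Art4, another ADP-ribosyltransferase gene, was also lower in CD44high Tregs (log2 -3.07 in uninjured and -2.60 in injured mice). Of the 5 genes tested on the list of NAD use outside the cell, Cd38 was the 1 that was higher in CD44high Tregs, and 3 were lower, in both kinds of mouse. On the list of NAD synthesis, 3 of 9 genes tested were called in uninjured and 2 in injured mice, led by Naprt, which makes NAD from nicotinic acid and was higher in CD44high Tregs (log2 2.95 and 2.57). Nmnat3, an enzyme of the last step to NAD, was lower (log2 -0.76 and -0.91). Nadk2, the mitochondrial NAD kinase, was higher in uninjured mice (log2 0.36, adjusted p = 0.0455), a call lost in 14 of 26 alternatives.

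On the list of genes downstream of P2X7, 7 of 8 genes were tested, and 2 were higher and 2 lower in CD44high Tregs of uninjured mice, against 3 and 2 in injured mice. Casp1, the inflammasome protease, and Pycard, its adaptor, were higher in CD44high Tregs (log2 1.92 and 1.15 in uninjured, 1.49 and 1.21 in injured mice). The macrophage and dendritic cell list was also higher there, and its part in these differences was not tested.

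**Figure D3:**
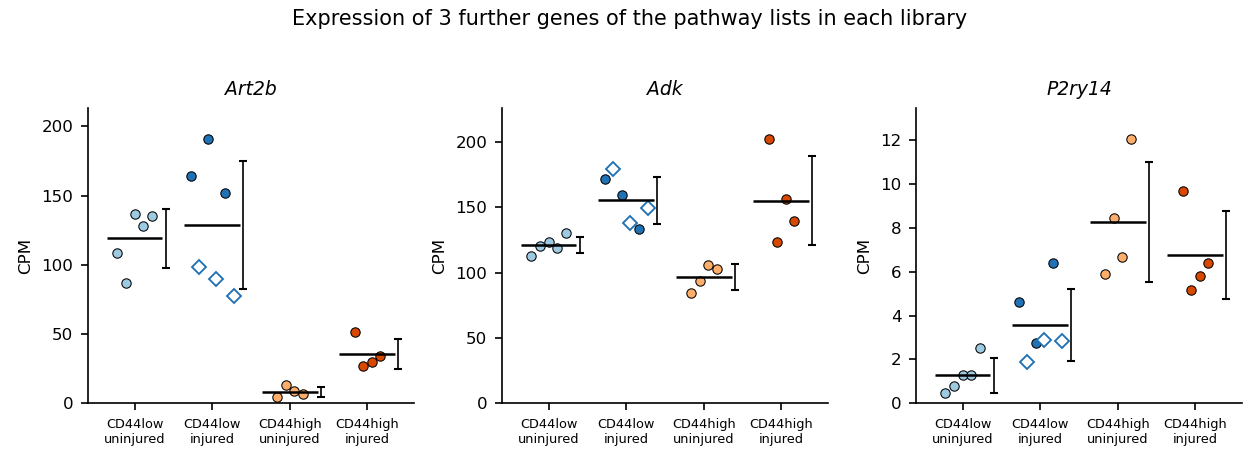
The CPM (y axis, linear, from 0) of Art2b, Adk and P2ry14 is plotted for every library of the 4 groups (x axis), with means as lines, SDs as bars and the injured CD44low libraries 1_2, 4_2 and 5_2 as open diamonds. Art2b was higher in all 4 injured than in all 4 uninjured CD44high libraries and stayed below all CD44low libraries, and Adk was also higher in all 4 injured CD44high libraries.

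Among the ectonucleotidases 7 of 12 genes were tested, and 5 were higher and 1 lower in CD44high Tregs of uninjured mice, and likewise in injured mice. Besides Entpd1 and Nt5e, Enpp2, the gene of autotaxin, which makes lysophosphatidic acid, was higher (log2 2.19 and 2.37, with means of 7.59 against 1.62 CPM in uninjured mice), without a call in uninjured mice when CD44high replicate 2 was left out (adjusted p = 0.0679) or in injured mice without libraries 1_2, 4_2 and 5_2 (0.0702). Alpl, the tissue-nonspecific alkaline phosphatase, was higher as well (log2 0.92 and 0.85), and so was Enpp1, which splits ATP to AMP (log2 0.51 and 0.58). The uninjured call of Alpl was lost in 3 and the injured call of Enpp1 in 1 of the fits that leave out a library. Enpp4, a membrane-bound phosphodiesterase of the same family, was lower (log2 -2.38 and -2.34). Of the NTPDases inside the cell, Entpd7 was higher (log2 1.32 and 0.78), while Entpd5 (log2 -0.63 and -0.40) and Entpd6 (log2 -0.44 and -0.63) were lower. In injured mice the call of Entpd7 was lost in 4 alternatives, among them leaving out libraries 1_2, 4_2 and 5_2 (adjusted p = 0.0543), and that of Entpd5 without replicate 2 or 5 of CD44high or replicate 5 of CD44low Tregs (0.0888, 0.0802 and 0.0558).

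Of 9 P2Y receptor genes 4 were tested and 1 was called, P2ry14, the receptor for UDP-sugars. It had 5.88, 8.47, 6.67 and 12.03 CPM in CD44high and 0.469, 0.787, 1.28, 1.29 and 2.53 CPM in CD44low libraries of uninjured mice, and 9.68, 5.18, 5.82 and 6.41 CPM in CD44high and 1.89 to 6.41 CPM, median 2.86 CPM, in CD44low libraries of injured mice. The subsets were apart in uninjured mice and overlapped in injured mice. The log2 fold change was 2.70 ± 0.41 (SE, adjusted p = 1.02e-05) in uninjured and 0.91 ± 0.36 (SE, adjusted p = 0.0465) in injured mice, and the latter call was lost in 19 of 26 alternatives. In CD44low Tregs P2ry14 rose after injury (log2 1.49 ± 0.40, SE, adjusted p = 0.0245), without a call when replicate 1 or 2 of uninjured (adjusted p = 0.0639 and 0.0555) or replicate 5 of injured CD44low Tregs (0.0522) was left out, or when the compared groups were fitted alone (0.0646). Lyz2 (log2 1.27), Itgam (3.87) and Klrb1c (3.00) rose in the same comparison, and the part that RNA of other cell types had in the values of P2ry14 was not tested.

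On the list of adenosine removal and transport, 11 of 14 genes were tested, and 4 were higher and 5 lower in CD44high Tregs of uninjured mice, against 2 and 2 in injured mice. Pnp, which splits inosine, was higher (log2 1.15 and 1.03). Of the equilibrative nucleoside transporters, Slc29a4 was higher (log2 2.85 and 2.56) and Slc29a1 was higher in uninjured mice (log2 0.52). Slc29a3 was lower (log2 -0.55 and -0.54), without a call in injured mice when libraries 1_2, 4_2 and 5_2 (adjusted p = 0.0646) or CD44high replicate 2 or 4 (0.0741 and 0.0654) were left out. Adk, the kinase that returns adenosine to AMP inside the cell, had 84.3, 93.3, 106 and 103 CPM in uninjured and 202, 123, 156 and 139 CPM in injured CD44high libraries, with no overlap. It rose in CD44high Tregs (log2 0.68 ± 0.13, SE, adjusted p = 0.00447). In CD44low Tregs its log2 fold change was 0.36 ± 0.11 (SE, adjusted p = 0.0530), and the difference between the subsets was not called (0.32 ± 0.17, SE, adjusted p = 0.516).

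Of the cytosolic AMP enzymes 9 of 13 were tested, with 3 higher and 3 lower in CD44high Tregs of uninjured mice and 2 higher and 3 lower in injured mice. The AMP deaminase genes Ampd3 (log2 -1.37 and -0.98) and Ampd1 (log2 -3.79 and -2.25, at 6.34 CPM or less in the mean of every group) were lower. Nt5c3, a pyrimidine nucleotidase, was lower (log2 -0.29 and -0.54), and Nt5c2, a cytosolic nucleotidase, fell after injury in CD44low Tregs (log2 -0.50, adjusted p = 0.0250), a call lost in 5 alternatives. On the list of ATP release 6 of 9 genes were tested and 2 were lower in CD44high Tregs of both kinds of mouse, Slc17a9, the vesicular nucleotide transporter (log2 -0.89 and -1.10), and Lrrc8d, a subunit of volume-regulated anion channels (log2 -0.68 and -0.56). Lrrc8a, another subunit, fell after injury in CD44low Tregs (log2 -0.81, adjusted p = 0.0245), a call lost in 7 alternatives. Panx1, the pannexin channel gene, was not called in any comparison, with group means between 128 and 159 CPM.

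On the list of cAMP signalling, which acts below the Adora2a receptor, 22 of 23 genes were tested. In uninjured mice 5 were higher and 8 lower in CD44high Tregs, and in injured mice 4 were higher and 7 lower. Crem, a cAMP-responsive transcription factor gene, was higher (log2 1.50 and 1.52), as was Prkar1a, a regulatory subunit of protein kinase A (log2 0.92 and 0.60). The phosphodiesterase gene Pde4a was higher (log2 3.31 and 1.82) and Pde2a was lower (log2 -0.87 and -0.93). After injury Prkar1a rose (log2 0.42, adjusted p = 0.00776) and Prkacb, a catalytic subunit, fell (log2 -0.39, adjusted p = 0.0150) in CD44low Tregs, the latter without a call when replicate 1 of uninjured CD44low Tregs was left out (adjusted p = 0.0549). Pde4d fell there (log2 -0.61, adjusted p = 0.0497) and Prkar2b fell in CD44high Tregs (log2 -1.12, adjusted p = 0.0492), and these calls were lost in 18 and 19 of 26 alternatives.

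**Figure D4:**
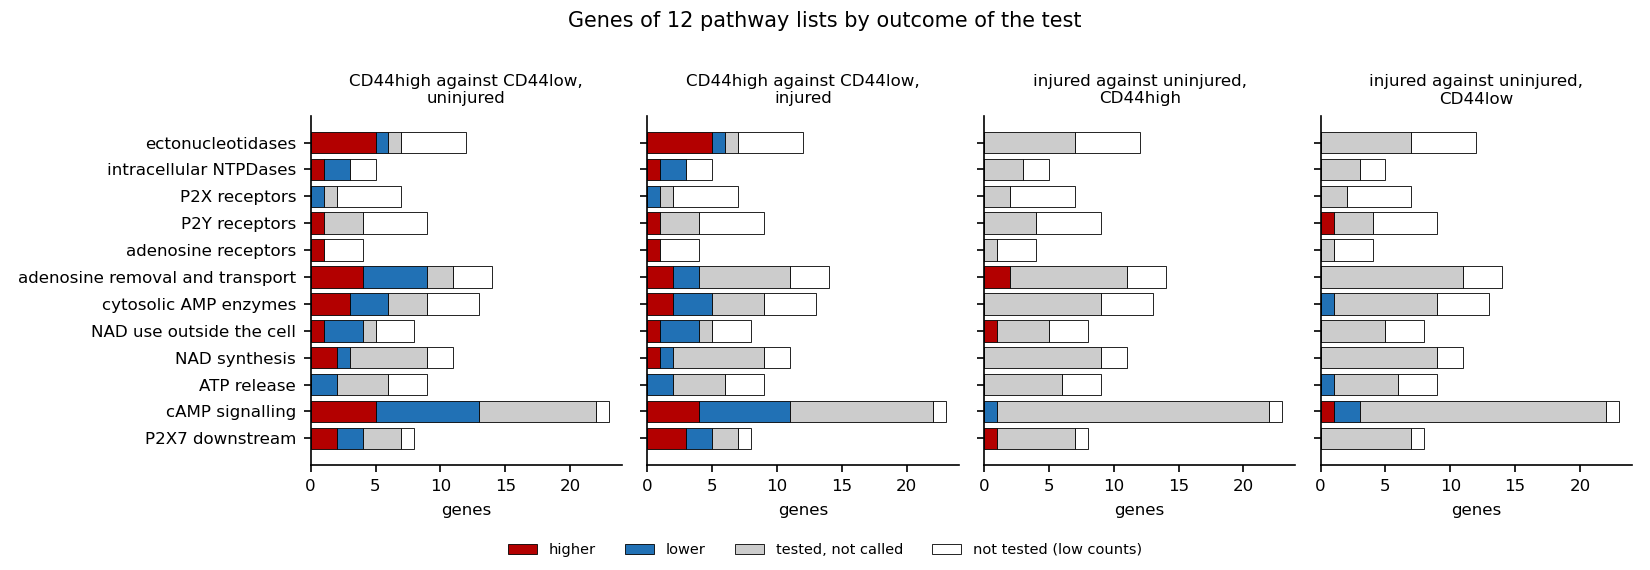
Stacked bars count the genes (x axis) of each of 12 pathway lists (y axis), the 8 genes included, by the outcome of edgeR's test in 4 comparisons: higher, lower, tested but not called, and not tested because of low counts. Between the subsets 8 of the 12 lists hold genes called in each direction, and after injury few genes were called, none of them among the ectonucleotidases.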

How the data were processed

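The RNA was amplified with SMART-Seq v4 and made into libraries with Swift 2S, without molecular identifiers or strand marks, so antisense reads cannot be told apart and intervals cover no more than the spread between libraries. The authors aligned reads with STAR through the VIPER pipeline and deposited raw counts per gene. The submitters' processing notes name bcl2fastq 2.18, STAR 2.5, mm9 and mm10, with no role for either build. Of 24982 rows, 24464 symbols matched GENCODE vM21, 363 a RefSeq symbol and 60 a RefSeq synonym, 69 matched none and 26 read as a date; 8091 genes had no count.

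Counts were tested with edgeR 4.0.16 (R 4.3.3, limma 3.58.1) by its quasi-likelihood test, with filterByExpr at a minimum count of 10, TMM scaling (factors 0.970 to 1.04), 1 mean per group over all 19 libraries and no covariates. Confidence intervals are at 95%. Alternatives were DESeq2 1.42.0, the compared groups alone, RLE scaling, no filter, a replicate block, an unadjusted p under 1e-06 with a 2-fold change, libraries 1 and 1_2 and libraries 5 and 5_2 summed, libraries 1_2, 4_2 and 5_2 left out, and each library left out. The tests were also run on simulated counts with known changes, drawn as independent libraries. The simulation held no set of libraries with a second digit, no pairing and no RNA of other cell types. It therefore says nothing about these features. Python 3.11.15 with pandas 2.3.3 and matplotlib 3.10.9 drew the figures.

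The 8 genes, the pathway lists, the motifs and the tests were chosen with earlier results of these data known. Named in each comparison were all 8 genes, up to 3 genes of smallest p among those called on each pathway list, the sort markers, the most abundant gene of each list of another cell type and those named as absent, and the 2 genes most alike to each of the 8. Itgam, S100a9, Jchain, Klrb1c, Col1a1 and Panx1 were named beyond this rule after their values were seen, as were the P2X and adenosine receptor genes with few counts, and further values of genes the rule had named in another comparison. A pair of genes counted on the pathway lists is not reported here by name.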

Additional observations from a re-analysis of the deposited data

Results flagged for a closer look

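For Dpp4 the effect of injury differed between the CD44high and CD44low subsets (difference of log2 fold changes 0.79, adjusted p = 0.0272 in edgeR's test of the interaction), a call lost in 8 of 25 alternatives. For Art2b the same difference was 1.97 (adjusted p = 0.0121). For both genes the CD44high libraries of injured mice lay above those of uninjured mice. Of 44 sets of libraries looked at, 11 genes in 4 groups, 0 held a library far from the others by Dixon's test. With 4 to 6 libraries in a group this test flags only a wide gap, and it misses libraries that stand apart together. The result therefore does not show that no library stood apart.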

How the results depend on the processing

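Of 1032 alternative values of the 8 genes, 989 kept their direction and their side of the threshold, 8 lost and 5 gained a call and 30 changed sign, and 26 of 40 gene and comparison pairs kept both throughout. For the up to 3 called genes of smallest p on each pathway list and comparison, 65 gene and comparison pairs, 1581 of 1688 values kept both, 107 lost the call and 0 changed sign, and the other called pathway genes were not followed. These pathway genes were picked because the main fit called them, so they could gain no call and a change of sign was unlikely. Their counts are therefore not comparable with those of the 8 genes. Why calls and signs changed was not tested, except that an unadjusted p under 1e-06 with a 2-fold change is stricter by construction. With groups of 4 to 6 libraries, Ada and P2rx4 had 95% intervals that reach log2 -0.77 and -0.52 between the subsets.

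Between the subsets, an unadjusted p under 1e-06 with a 2-fold change called 1 of the 8 genes, 14 pathway genes and 951 of all genes in uninjured mice and 2, 10 and 688 in injured mice. After injury it called 0, 2 and 17 in CD44high and 14 of all genes in CD44low Tregs, and for the interaction 0, 1 and 10. DESeq2 called 477 of all genes in CD44high, 16 pathway genes and 1460 of all genes in CD44low Tregs, and 2 of the 8 genes and 215 of all genes for the interaction. The compared groups alone gave 601 of all genes in CD44high and 3 pathway genes and 464 of all genes in CD44low Tregs. With libraries 1 and 1_2 and libraries 5 and 5_2 summed, 476 of all genes were called in CD44high Tregs, and the log2 fold change of P2rx4 between the subsets of injured mice became 0.022 and that of Ada after injury in CD44low Tregs -0.021. Without libraries 1_2, 4_2 and 5_2, 2 of the 8 genes and 581 of all genes were called in CD44high Tregs, 1, 10 and 1749 of the 8, the pathway and all genes in CD44low Tregs, and 4 pathway genes and 314 of all genes for the interaction. Ada after injury in CD44low Tregs was then -0.00013, Cd38 0.29 and Dpp4 0.047, and the interaction was -0.19 for Nt5e, -0.12 for P2rx4 and -0.077 for Cd38. Of the genes called for the interaction 48.1% were then higher, against 29.7% with them.

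Leaving out 1 library at a time, 152 (without injured CD44high replicate 5) to 344 of all genes were called after injury in CD44high Tregs, against 273 with all libraries. In CD44low Tregs 3 (without uninjured replicate 1) to 15 (without injured replicate 5_2) pathway genes were called, against 6, and 510 to 1893 of all genes, with the same libraries left out, against 871. For the interaction 0 to 2 of the 8 genes were called, and 43 (without injured CD44high replicate 5) to 110 of all genes, against 74. Log2 fold changes whose sign turned were those of Ada (-0.26 to 0.031 between the subsets of uninjured mice, -0.031 to 0.12 after injury in CD44low Tregs), P2rx4 (-0.15 to 0.10 between the subsets of injured mice, -0.056 to 0.21 for the interaction), Adora2a (-0.021 to 0.094 after injury in CD44high Tregs), Cd38 (-0.19 to 0.082 after injury in CD44low Tregs) and Nt5e (-0.0079 to 0.16 for the interaction).

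The groups share replicate numbers, and no source used here says whether libraries of the same number are paired. The correlation of deviations from the group means had a median of 0.0057 over 26 pairs with the same number. It ranged from -0.12 to 0.17 and was over 0.1 in 4 pairs. Over 108 pairs with different numbers the median was -0.0079, with 10 over 0.1. Of 19 libraries, 5 correlated best with one of their own number. The 26 also hold pairs of injured with uninjured libraries, which cannot share a mouse. All 4 over 0.1 joined CD44high and CD44low libraries of the same kind of mouse. Other such pairs lay between -0.054 and 0.062, so pairing was not settled. With the replicate number as a block, 6, 5, 1 and 0 of the 8 genes were called between the subsets of uninjured and injured mice and after injury in CD44high and CD44low Tregs, and 0 for the interaction, where Dpp4 had a difference of 0.78 (adjusted p = 0.0774). The block gave 439 of all genes after injury in CD44low Tregs, turned P2rx4 between the subsets of injured mice to 0.11 and Ada after injury in CD44low Tregs to -0.036.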

Other observations

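Among all genes tested, those whose log2 CPM followed each of the 8 genes most closely over the 19 libraries were found by Pearson's r. These libraries share their groups, their sort and their depth, so r is a description. P2rx7 was most like Tcf7, a factor of naive and memory T cells (r = 0.968), and Pecam1 (r = 0.968). Entpd1 was most like Incenp, a gene of the chromosomal passenger complex (r = 0.962), and Slamf1, a co-receptor gene of activated lymphocytes (r = 0.955). Adora2a was most like Eloa (r = 0.959) and Cab39 (r = 0.951), Nt5e most like Nsmaf (r = 0.954) and the actin-bundling gene Lcp1 (r = 0.953), and Cd38 most like Far1 (r = 0.930) and Man2b1 (r = 0.918). Dpp4 was most like Art2b (r = 0.889), which shares its rise after injury in CD44high Tregs, and Dennd2d (r = 0.874). Ada, with Krt10 (r = 0.857) and Sardh (r = 0.777), and P2rx4, with Blnk (r = 0.796) and Pkib (r = 0.780), had the lowest values. Blnk is on the B cell list, and the part that B cell RNA had in the values of P2rx4 was not tested.

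Between the 8 genes, r was 0.877 for Nt5e and Adora2a, 0.862 for Nt5e and Cd38, 0.832 for Entpd1 and Adora2a, 0.778 for Nt5e and Entpd1, and 0.760 for P2rx7 and Dpp4. It was -0.808 for P2rx7 and Entpd1 and -0.736 for P2rx7 and Nt5e, and -0.277 for Cd38 and Dpp4.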
